A study of Mus musculus with 24 samples.

Results

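Mitochondria hold their own ribosome, which translates the few proteins that mitochondrial DNA encodes, all of them parts of the respiratory chain or of ATP synthase. The proteins of this ribosome come from nuclear genes, are made in the cytosol and are imported. Those nuclear genes are described here, chosen by name alone: a gene symbol made of Mrpl or Mrps, a number and at most 1 letter. The rule found 78 members among 29742 gene names on the array, carried by 110 of its 39429 probes. By textbook assignment, 51 members encode proteins of the large subunit and 26 proteins of the small subunit. Mrps18a and Mrps30 carry small-subunit names but sit in the large subunit and were counted there. Mrps36 was counted apart, since its product belongs to the 2-oxoglutarate dehydrogenase complex. Among the large-subunit members, 30 have a relative in bacterial ribosomes and 21 exist only in mitochondria, and for the small subunit these numbers were 16 and 10.

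Male C57BL/6J mice aged 2 months (young) or 21 months (old) received sham treatment or 4 Gy of total-body x-rays, and blood was drawn by cardiac puncture 24 h afterwards. The groups were thus young unirradiated, young irradiated, old unirradiated and old irradiated mice, with 6 mice in each. Whole blood was stabilized in PAXgene tubes, globin transcripts were reduced, and the RNA was labelled with Cy3 and hybridized to 1-colour Agilent 4x44K arrays. Each array held the RNA of 1 mouse, so every p-value below compares separate mice.

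Cells that grow or build mitochondria need mitochondrial ribosomes, and their protein genes are known targets of growth and respiration regulators such as NRF1, GABP, YY1 and Myc. Mature mammalian red cells have lost both mitochondria and ribosomes, while reticulocytes still carry remnants of both. Whole blood mixes lymphocytes, myeloid cells, platelets and red cells, and total-body irradiation is known to deplete lymphocytes, B cells above all.

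Levels are given as log2 of the processed signal minus the median of all non-control spots on that array, so 0 marks a typical spot and 1 unit a doubling. The median signal of an array ranged from 8.66 to 44.8, and 43.9 to 64.4 percent of the spots on an array lay well above background. The members were well detected: the probes of 70 to 78 of the 78 members lay well above background on each array, with the lowest number on old irradiated array 6. In the old unirradiated group all 78 did so on every array. No member lay at background in all 6 mice of any group, and no member spot was saturated. Tests covered genes that differed at least 1.5-fold from their median on 5 or more arrays, which left 65 members among 17805 genes. The 13 others were Mrpl18, Mrpl20, Mrpl27, Mrpl57, Mrpl58, Mrps6, Mrps10, Mrps18c, Mrps21, Mrps24, Mrps27, Mrps33 and Mrps36. Because this requirement selects members that vary, the main counts are also given for all 78 members among 18737 genes without it.

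Blood cell markers were present as the label says. On each array 8 or 9 of 9 erythroid markers lay well above background, 9 or 10 of 10 T cell markers, 7 to 10 of 10 B cell markers and 10 to 12 of 12 neutrophil markers. The same held for 5 or 6 of 6 monocyte and macrophage markers, 6 or 7 of 7 natural killer cell markers and all 8 platelet markers. The most abundant genes of these lists were Hba-a1, Lck, Cd79b, S100a9, Csf1r, Gzma and Pf4 in that order. Irradiation moved the B cell list far: its median was 5.49 to 6.73 in the unirradiated mice and 1.94 to 3.30 in the irradiated mice. In young mice 10 of 10 B cell markers fell (list median −2.56), and in old mice 9 of 10 fell (−3.84). All 8 platelet markers rose at both ages, with list medians of 1.82 and 1.81. These counts held under each scaling except normexp, after which 3 and 2 B cell markers fell and 3 and 0 platelet markers rose in young and old mice. Endothelial markers, led by Kdr, were above background for 3 to 6 of 8 genes.

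Several irradiated arrays stood apart in genes outside the members. Markers of hepatocytes, which blood should lack, lay well above background for 14 of 14 genes on young irradiated arrays 2, 4 and 5 and on old irradiated arrays 2, 3 and 5. On these 6 arrays the summed level of the list ran from 14.02 to 15.31, with Apoa2, a lipoprotein component, the gene with the highest signal. On the old unirradiated arrays 3 to 5 of the 14 genes were above background, and the summed level was 5.49 to 6.02. Young unirradiated arrays varied between these states. All 14 genes were above background on arrays 3 and 5 (summed level 8.98 and 11.55) and 13 on array 4 (7.66), and the summed level of the 3 others was 6.55 to 7.06. Old irradiated arrays 4 and 6 carried 11 of the 14 hepatocyte genes above background (summed level 8.53 and 8.35), and they stood apart in other lists. Their median signal was the lowest of the series, at 8.66 and 8.84. Their erythroid list had medians of 12.43 and 12.76 (summed level 17.34 and 17.42), against 6.48 to 7.65 (14.82 to 15.81) on the 4 other arrays of the group. Their monocyte and macrophage list had medians of 2.45 and 2.59 (summed level 7.41 and 7.40), against 5.19 to 5.71 on those 4. The number of members that passed is therefore also given without these arrays, and the part of red cells, monocytes or hepatocyte transcripts in the results was not tested. From these arrays of whole blood alone, fewer cells of a type and less RNA per cell cannot be told apart.

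**Figure D1:**
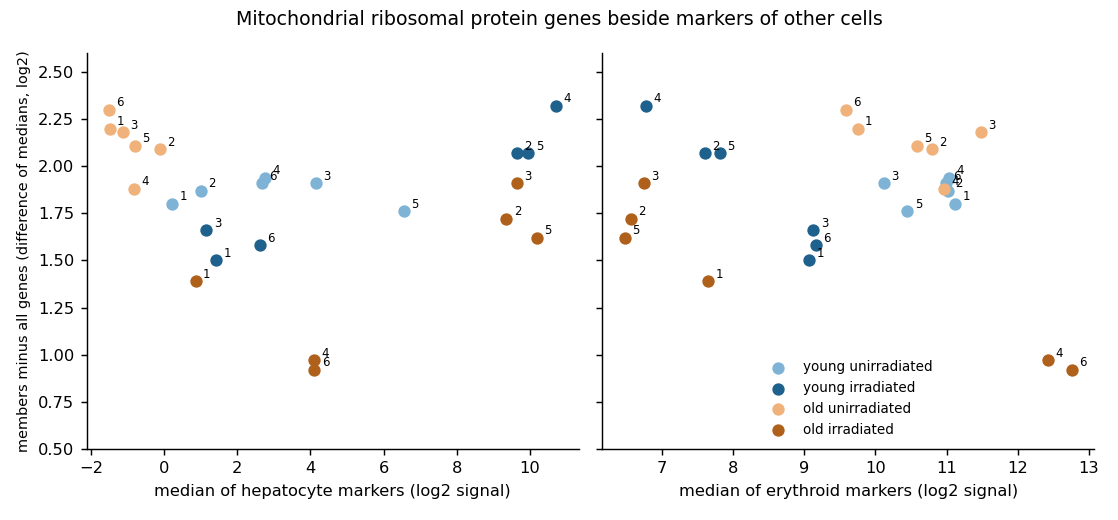
Median of the 78 members minus the median of all 18737 genes on each array (log2, vertical) against the median of hepatocyte markers (left) or erythroid markers (right), 1 point per mouse, numbered within its group. Old irradiated mice 4 and 6 had the highest erythroid medians, 12.43 and 12.76, and the lowest member values, 0.97 and 0.92.

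Promoters of 4 members are shown first, those of the 2 members that fell furthest in old mice and those of Mrpl32 and Mrps25, whose values took courses of their own. For Mrps25 this rests on 1 of its 2 probes, and its interaction of age and radiation did not pass. RefSeq start sites on mouse build GRCm38.p6 gave 75 windows for 69 of the 78 members, each with 250 bases before and 50 bases after the start. On either strand, the letters CCGGAAG (bound by GABPA) stood in 34.7 percent of member windows, against 8.86 percent of all 32851 windows. The NRF1 letters (GCGCA, any base, then GCGC) stood in 17.3 against 4.6 percent, and AAGATGGC (YY1) in 16 against 2.75 percent. At least 1 of these 3 stood in 57.3 percent of member windows and in 14.7 percent of all windows. TATAAA was the reverse, in 6.67 against 13.6 percent. The spellings were chosen after counts had been seen, and a match describes letters, not a bound site. Below are the 150 bases upstream of the start for Mrpl3 (chr9:105053118-105053267, plus strand) and Mrps22 (chr9:98601680-98601829, minus strand), then Mrpl32 (chr13:14613038-14613187, minus strand) and Mrps25 (chr6:92184024-92184173, minus strand). Capitals mark CCGGAAG in Mrpl3 and Mrps22 and the NRF1 letters in Mrpl32, and in Mrps25 none of the letters searched stood in this stretch.
Mrpl3: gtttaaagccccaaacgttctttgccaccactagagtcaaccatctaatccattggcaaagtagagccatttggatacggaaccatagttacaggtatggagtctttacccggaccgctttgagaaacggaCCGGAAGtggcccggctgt
Mrps22: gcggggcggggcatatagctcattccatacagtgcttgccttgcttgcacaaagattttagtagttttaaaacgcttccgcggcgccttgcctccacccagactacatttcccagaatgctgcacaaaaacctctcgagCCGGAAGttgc
Mrpl32: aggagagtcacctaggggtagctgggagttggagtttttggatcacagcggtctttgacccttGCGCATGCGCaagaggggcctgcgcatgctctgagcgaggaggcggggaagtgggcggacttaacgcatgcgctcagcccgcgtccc
Mrps25: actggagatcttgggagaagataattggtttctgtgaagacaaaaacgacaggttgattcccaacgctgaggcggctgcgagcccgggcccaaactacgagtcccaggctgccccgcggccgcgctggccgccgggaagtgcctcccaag

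The median of the 78 members in each mouse gave the first view of the groups. It was 4.30 to 4.63 in young unirradiated mice (median 4.57), 4.05 to 4.89 in young irradiated mice (4.39), 4.83 to 5.42 in old unirradiated mice (5.16) and 3.41 to 4.77 in old irradiated mice (4.36). All 6 old unirradiated mice thus lay above all other mice but 1, the young irradiated mouse 4 at 4.89, which lay above the lowest of them. The medians of all genes differed too (2.66, 2.56, 3.01 and 2.83). Relative to all genes of the same array, the members had medians of 1.89, 1.86 and 2.14 in the first 3 of these groups, and ran from 0.92 to 1.91 in old irradiated mice. Under quantile normalization the old unirradiated mice kept the highest group median, 4.82 against 4.75, 4.62 and 4.11, but overlapped the young unirradiated mice. The old irradiated group remained the lowest under both scalings.

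**Figure D2:**
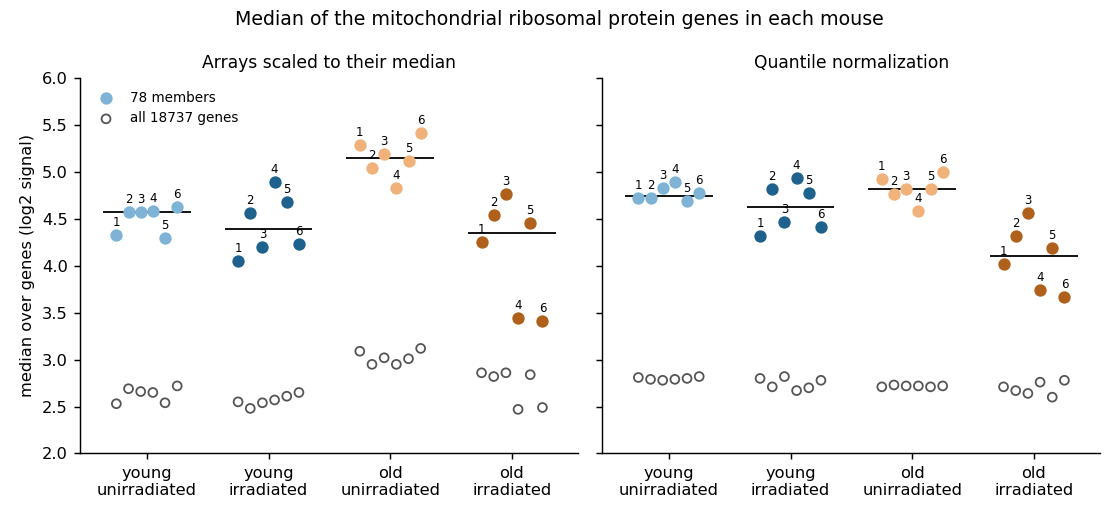
Median log2 signal of the 78 members (filled, numbered by mouse) and of all 18737 genes (open) on each array, with arrays scaled to their median (left) or quantile normalized (right); black bars are group medians. Old irradiated mice had the lowest group median of members (4.36 left, 4.11 right) and old unirradiated mice the highest (5.16), a lead over young unirradiated mice (4.57) that shrank to 4.82 against 4.75 on the right.

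Members also differed in how far mice of a group spread. The median standard deviation of a member was 0.188 in young unirradiated, 0.383 in young irradiated, 0.244 in old unirradiated and 0.700 in old irradiated mice. All genes showed the same order, with medians of 0.295, 0.442, 0.343 and 0.836. In old irradiated mice the spread ran from 0.139 for Mrpl20 to 1.67 for Mrpl32. Single mice set the extremes of many members at once. Old irradiated mice 4 and 6 were each the lowest of their group for 33 members, and old irradiated mouse 3 was the highest for 50. Young irradiated mouse 4 was the highest for 57 members and young irradiated mouse 1 the lowest for 49. Among old unirradiated mice, mouse 4 was the lowest for 57 members and mouse 6 the highest for 49.

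**Figure D3:**
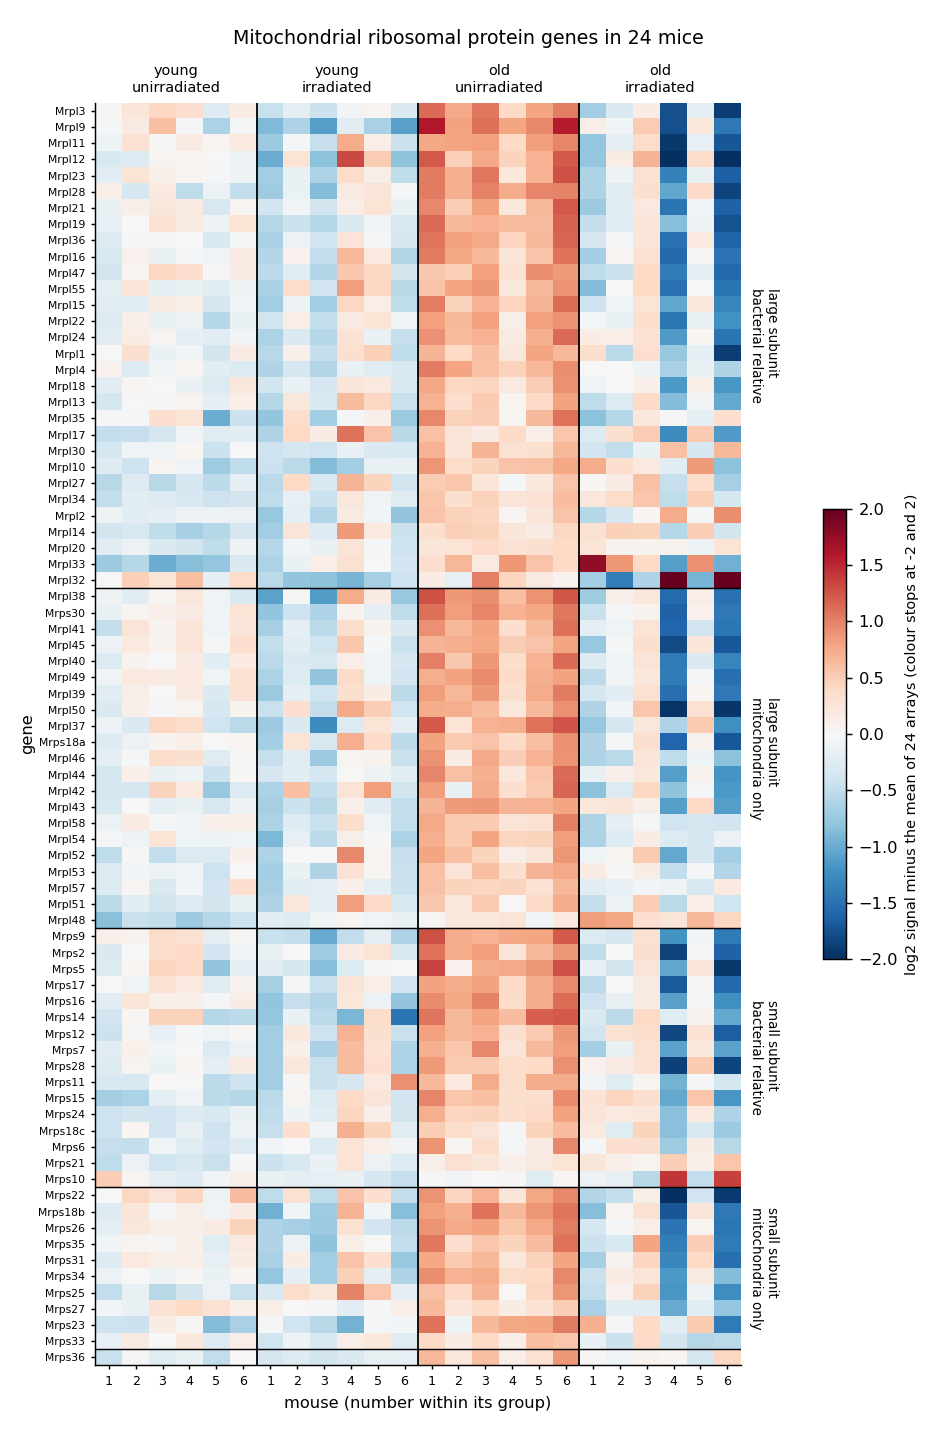
Log2 signal of each of the 78 members minus its mean over the 24 arrays (colour, red higher and blue lower, stopping at −2 and 2), with 1 column per mouse and genes ordered by subunit and by whether bacteria have a relative. Old unirradiated mice are red for most members, and old irradiated mice 4 and 6, each the lowest of its group for 33 members, are the bluest columns.

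In young mice, the question was which members differ 24 h after irradiation. Few did: 1 of the 65 tested members rose and 3 fell by limma's moderated test, while 14.3 percent of all tested genes rose and 21.1 percent fell. For all 78 members the numbers were again 1 and 3, beside 13.8 and 20.4 percent of genes. With 75th-percentile scaling, quantile normalization and scaling to probes above background, 2, 0 and 2 of the 78 rose and 6, 11 and 3 fell. Under quantile normalization 31 of the 78 stood at an unadjusted p under 0.05, against 13 with median scaling. For these other scalings the shares of all genes are not given, so the counts are not compared with other genes. The median change of the tested members was −0.17 and that of all genes −0.20, with members running from −0.95 (Mrpl32) to 0.63 (Mrps25). At an unadjusted p under 0.05 stood 12 members, or 18.5 percent, against 53.2 percent of all genes. Large-subunit members had a median change of −0.15 and small-subunit members of −0.23.

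Mrpl32, a large-subunit protein with a bacterial relative that is trimmed by the m-AAA protease after import, fell the furthest. It read 4.88, 5.37 and 5.66 (lowest, median and highest mouse) in young unirradiated mice and 4.12, 4.33 and 4.65 in young irradiated mice. All 6 irradiated mice lay below all 6 unirradiated mice, a change of −0.95 (standard error 0.162, limma adjusted p = 0.000471). Mrpl48, which exists only in mitochondria, read 5.10, 5.40 and 5.52 in unirradiated and 5.67, 5.81 and 5.98 in irradiated young mice. It was the member that rose, by 0.45 (standard error 0.124, adjusted p = 0.00935), again with no overlap between the groups. Mrps9, named after its values were seen, is a small-subunit protein with a bacterial relative, and read 2.70, 2.97 and 3.26 against 1.89, 2.41 and 2.71. The groups barely overlapped, and it fell by 0.65 on the log2 scale (standard error 0.158, adjusted p = 0.00486). Mrpl9 read 2.41, 3.02 and 3.65 against 1.95, 2.28 and 2.84. All 6 irradiated mice lay below the median of the unirradiated mice, and it fell by 0.77 on the log2 scale (standard error 0.214, adjusted p = 0.0103).

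The high-hepatocyte arrays bore on this count: without young irradiated arrays 2, 4 and 5, no member rose and 21 of 65 fell, with a median of −0.50 against −0.10 for all genes. For this fit and the other fits of this paragraph the shares of all genes that passed are not given. These counts are therefore not compared with other genes. Without young unirradiated arrays 3, 4 and 5, where hepatocyte markers were also frequent, no member rose and 1 fell, with 6 at an unadjusted p under 0.05. Counts this small moved with single arrays. Members that rose numbered 3 without young irradiated array 1, 2 without young unirradiated array 6, and 0 without young unirradiated arrays 1, 4 or 5 or young irradiated arrays 3, 4, 5 or 6. Members that fell numbered 7 without young irradiated array 4. The call of Mrpl48 was lost without each of 7 of the 12 arrays (young unirradiated 1, 4 and 5 and young irradiated 3, 4, 5 and 6, changes of 0.40 to 0.46). The call of Mrpl9 was kept only without young unirradiated array 5 or young irradiated array 4, and the changes over all 12 omissions ran from −0.90 to −0.65. Mrpl32 and Mrps9 kept their calls in all 12. With slide as a random block 3 members rose and 7 fell, and within the single slide that held both treatments no member passed, with 1 at an unadjusted p under 0.05. Relative to all genes, the median of the 78 members was 0.05 higher, 0.02 higher under quantile normalization and 0.25 higher after normexp. The 75th-percentile scaling and the scaling to probes above background shift all genes of an array alike, so they cannot change this gap, here or in the comparisons below. In the deposited table Mrpl9 (adjusted p = 0.0608) and Mrps9 (adjusted p = 0.0670) did not pass, and Mrpl32 did. After normexp background correction no member passed (1 at an unadjusted p under 0.05), and the median of the 78 was 0.29, above 0 in place of −0.12. On young unirradiated array 5 the median level of the members was then 0.27, against 2.13 to 3.21 on the others of its group. The part of this array in the result after normexp was not tested. Over the same 18737 genes, 40.2 percent of all calls were higher genes, against 82.9 percent after normexp.

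Mrps25 had 2 probes that went apart in young mice. The brighter probe read 3.99, 4.14 and 4.44 in unirradiated and 4.24, 4.83 and 5.55 in irradiated mice, a change of 0.63 that missed the threshold (adjusted p = 0.0273). Its other probe, well above background on 21 of 24 arrays, fell by 0.86 on the log2 scale (standard error 0.216, adjusted p = 0.00595). For 19 of the 23 members with several probes past the filter, all probes shared the sign of change. The number that fell depends on the choice of probe. Besides Mrps25, the dimmer probes of Mrps26 (−0.92, adjusted p = 0.000427, above background on all 24 arrays) and Mrpl41 (−1.02, adjusted p = 0.00260, on 18 arrays) fell, while their tested probes did not pass (−0.58 and −0.25).

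Counts of other genes of mitochondrial gene expression in young mice stand beside 21.1 percent of all tested genes that fell and 14.3 percent that rose. These shares are for median scaling, and those after normexp are not given. Of 9 tested genes of mitochondrial DNA upkeep and transcription, 5 fell, among them Tfam, which packs mitochondrial DNA (−1.25, adjusted p = 0.000278), and Polrmt, the mitochondrial RNA polymerase (−0.77, adjusted p = 0.00139). Of 17 assembly factors 6 fell, including the RNA helicase Dhx30 (−0.79, adjusted p = 0.000654) and the methyltransferase Mrm1 (−1.20, adjusted p = 5.14e-05). Of 16 mitochondrial aminoacyl-tRNA synthetases 4 fell, as did 1 of 15 translation factors and 1 of 7 regulators, Nrf1 (−0.72, adjusted p = 0.00170). Of 8 proteases and chaperones 1 rose, and none of 4 mitoribosome genes with other names passed. Of the 82 tested cytosolic ribosomal protein genes 54 fell and 2 rose, with a median of −0.63, negative under each scaling (−0.03 after normexp). After normexp no gene of any of these lists passed. Of 61 respiratory chain subunits 5 rose and 5 fell, with a median of 0.14. For all the respiratory chain genes past the background filter it was 0.18, but −0.01 under quantile normalization and 0.64 after normexp. Without young irradiated arrays 2, 4 and 5 the median of the 61 was −0.31. Of the genes that mitochondrial DNA itself encodes the array carried 10, from names matched after the other results had been seen, and COX2 and CYTB had the highest signals. None of the 9 tested passed in young mice, with 1 at an unadjusted p under 0.05. Their median was 0.62, but −0.30 without young irradiated arrays 2, 4 and 5. For all 10 it was 0.54, and 1.03 after normexp. Cell markers moved in the same mice: 7 of 10 T cell markers fell (median −1.12), 5 of 7 natural killer cell and 5 of 12 neutrophil markers rose, and of 6 monocyte and macrophage markers 3 rose and 1 fell. After normexp 1 T cell marker fell, and 1 natural killer cell, 1 neutrophil and 3 monocyte and macrophage markers rose. Of 9 erythroid markers 1 rose and 3 fell, of 5 tested endothelial markers 3 rose, and of 9 tested hepatocyte markers 1 rose.

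In old mice the question was the same. Of 65 tested members 38 fell and none rose, or 58.5 percent, while 17.4 percent of all tested genes fell and 7.49 percent rose. Of all 78 members 38 fell and none rose, beside 17.1 and 7.32 percent of genes. The 2 counts shared 36 members. Mrpl4 and Mrps14 fell only with the fold requirement, where dimmer probes represented them, and Mrpl58 and Mrps27 only without it. Changes of 64 of the 65 were below 0, Mrpl48 (0.39) being the exception, and 61 lay below the median of all genes. The median was −1.13 against −0.26 for all genes, and −1.03 against −0.24 for the 78. In 28 of the 38 members all 6 irradiated mice lay below all 6 unirradiated mice, or 73.7 percent, against 81.8 percent of all tested genes that fell. Without the requirement it was 73.7 against 80.6 percent. At an unadjusted p under 0.05 stood 54 members (83.1 percent, against 44.8 percent of all genes).

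The fall took in both subunits and both kinds of protein. Of large-subunit members 26 of 46 tested fell (26 of all 51), with a median of −1.13, and of small-subunit members 12 of 19 (12 of all 26), with a median of −1.14. Members with a bacterial relative fell in 14 of 27 cases in the large and 8 of 11 in the small subunit. Members found only in mitochondria fell in 12 of 19 and 4 of 8 cases. Without the fold requirement these counts were 13 of 30 and 7 of 16 with a bacterial relative, and 13 of 21 and 5 of 10 without one.

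Mrpl3, a protein near the peptidyl transferase centre, fell the furthest. It read 4.91, 5.42 and 5.65 in old unirradiated mice and 2.61, 4.02 and 4.66 in old irradiated mice. The groups did not overlap, and the change was −1.64 (standard error 0.364, adjusted p = 0.00495). Mrps22, a small-subunit protein of mitochondria only, read 2.71, 3.21 and 3.43 against 0.40, 1.93 and 2.59. All 6 irradiated mice lay below all unirradiated mice (−1.56, standard error 0.376, adjusted p = 0.00738). Mrpl9 read 3.83, 4.07 and 4.65 against 1.29, 3.09 and 3.56, without overlap (−1.53, standard error 0.402, adjusted p = 0.0113). Its call was lost without old unirradiated arrays 1 or 6, with a change of −1.44 each time. Mrpl38 went from 2.94, 3.26 and 3.61 to 0.79, 2.03 and 2.55, again without overlap (−1.52, standard error 0.353, adjusted p = 0.00608). Mrpl11, at the base of the stalk that recruits elongation factors, went from 5.75, 6.16 and 6.34 to 3.42, 4.87 and 5.73. All 6 irradiated mice lay below the unirradiated ones (−1.50, standard error 0.379, adjusted p = 0.00916).

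Among relatives of bacterial S18, Mrps18b fell by 1.44 on the log2 scale (adjusted p = 0.00981) and Mrps18a by 1.22 (adjusted p = 0.0200). Mrps18c, among the members without the fold requirement, changed by −0.60 and did not pass (adjusted p = 0.0866). Mrps18a was read at 4.37, 4.57 and 4.89 in unirradiated and 2.29, 3.67 and 4.31 in irradiated mice, without overlap. Its call was lost without each of the 6 old unirradiated arrays and without old irradiated arrays 1, 4 or 6. Mrps30, of the large subunit despite its name, went from 4.86, 5.08 and 5.28 to 2.56, 3.93 and 4.26 and fell by 1.47 on the log2 scale (standard error 0.331, adjusted p = 0.00533), with no overlap. Mrps36, of the dehydrogenase complex, changed by −0.45 and did not pass (adjusted p = 0.122). Mrps9, which had passed in young mice, went from 3.59, 3.67 and 4.17 to 1.47, 2.59 and 3.19, without overlap (−1.41, standard error 0.312, adjusted p = 0.00480).

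The members that passed in young mice split in old mice. Mrpl32 read 4.89, 5.21 and 6.06 in old unirradiated and 3.67, 4.41 and 7.40 in old irradiated mice. Irradiated mice 4 and 6 stood at 7.40 and 7.30 while the 4 others stood at 3.67 to 4.44, and the change of −0.11 (standard error 0.632) did not pass (adjusted p = 0.909). Mrpl48 read 5.88, 6.14 and 6.19 against 6.19, 6.47 and 6.76, a change of 0.39 that did not pass (standard error 0.205, adjusted p = 0.156). Where members had several probes, 20 of 23 agreed in sign. The others were Mrpl4 (−0.99, other probe 0.07), Mrps2 (−1.35, other probe 0.10) and Mrpl47 (−1.27, other probes −0.69, 0.18 and 0.33), whose tested probes fell. The tested probe of Mrpl4 was the dimmer one, with a mean level of 4.01 against 6.82.

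The number of members that fell was 38 in the fit with slide as a random block and 7 within the single slide holding both treatments, where the median was −1.09 against −0.12 for all genes. In the deposited table it was 7 of 55, with 36 at an unadjusted p under 0.05. There Mrps22, Mrpl9, Mrpl38, Mrps18b and Mrps9 lost their calls (adjusted p of 0.0409, 0.0446, 0.0342, 0.0496 and 0.0326), as did Mrps18a (0.0830), while Mrpl3 and Mrpl11 kept theirs. Under median scaling the number was 33 without old irradiated arrays 4 and 6, where the median was −0.79 against −0.30. Without the high-hepatocyte arrays 2, 3 and 5 it was 51, with −1.73 against −0.21. For the other fits and scalings of this paragraph the shares of all genes that rose or fell are not given. These counts are therefore not compared with other genes. Leaving out 1 array gave 22, 23, 24 and 19 without old unirradiated arrays 1, 3, 5 and 6, and 25 without old irradiated array 4. The median of all 18737 genes depended on scaling: −0.24 here, then 0.06, −0.17 and 0.09 with 75th-percentile scaling, quantile normalization and scaling to probes above background, and 0.05 after normexp. Over the genes of the deposited table it was 0.08. Relative to all genes, the 78 members lay 0.78 lower on the log2 scale, 0.66 lower under quantile normalization and 0.27 lower after normexp. With 75th-percentile scaling, quantile normalization and scaling to probes above background 31, 36 and 21 of the 78 fell, and 1, 0 and 1 rose. With the fold requirement 17 of 33, 21 of 40 and 13 of 38 fell. After normexp no member passed, and 0 of 71 stood at an unadjusted p under 0.05. The median level of the members was then 0.94 and 1.24 on old unirradiated arrays 5 and 6, against 2.77 to 3.60 on the others. In old irradiated mice it ran from 0.97 to 3.30. The part of this spread in the result after normexp was not tested. Of the 18737 genes 1371 rose and 3203 fell here, and higher genes made up 43.4, 32.6, 49.6 and 94.8 percent of all calls under the 4 scalings. In the deposited table their share was 52.0 percent.

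Counts of genes that serve the mitochondrial ribosome in old mice stand beside 17.4 percent of all tested genes that fell and 7.49 percent that rose. Of 15 translation factors 8 fell (median −1.15), including Tufm, the elongation factor (−1.26, adjusted p = 0.0142), Oxa1l, which inserts new proteins in the membrane (−1.20, adjusted p = 0.0123), and Lrpprc, which stabilizes mitochondrial mRNA (−1.30, adjusted p = 0.00561). Of 17 assembly factors 12 fell (median −1.22), with Dhx30 at −1.51 (adjusted p = 0.00303) and Mrm1 at −1.30 (adjusted p = 0.00466). Of 16 synthetases 11 fell (median −1.33), such as Hars2 (−1.23, adjusted p = 0.0155) and Rars2 (−1.13, adjusted p = 0.0118). All 4 tested mitoribosome genes with other names fell: Chchd1 (−1.53), Ptcd3 (−1.31), Dap3 (−1.09) and Gadd45gip1 (−1.07). Of 9 genes of mitochondrial DNA 4 fell, Tfam by 1.90 on the log2 scale (adjusted p = 0.00139), Polrmt by 1.27 and Ssbp1, the single-strand binding protein, by 1.41. The medians of these lists were negative under each scaling, but no gene of them passed after normexp. With scaling to probes above background 6 of 15 translation factors, 11 of 21 assembly factors, 5 of 17 synthetases, 2 of 5 genes with other names and 3 of 9 genes of mitochondrial DNA fell. Translation factors, assembly factors, synthetases, genes with other names and genes of mitochondrial DNA gave 7, 13, 12, 4 and 4 that fell without old irradiated arrays 4 and 6. They gave 12, 12, 14, 4 and 7 without arrays 2, 3 and 5. Shares of all genes that fell with this scaling or without these arrays are not given. The 17.4 percent above is for median scaling with all arrays.

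The other lists stand beside the same shares, which are for median scaling with all arrays. Shares of all genes under other scalings or without some arrays are not given. Of 7 regulators 2 fell (median −0.92), among them Myc, a driver of ribosome production (−1.76, adjusted p = 0.0112), and Nrf1 changed by −0.92 without passing. Of 8 proteases and chaperones 2 fell (median −1.17), including Hspa9, the matrix Hsp70 (−1.30, adjusted p = 0.0189). Of 82 cytosolic ribosomal protein genes 16 fell and none rose, with a median of −0.59 that became 0.07 after normexp. Of all 84 past the background filter 17 fell, but 36 under quantile normalization and 0 after normexp. With 75th-percentile scaling and with probes above background 6 fell and 1 rose each time. On old irradiated arrays 4 and 6 the cytosolic list stood at 11.57 and 11.71, against 9.85 to 10.54 on the 4 others, the reverse of the mitochondrial list. Without these 2 arrays 67 of the cytosolic genes fell (median −1.07), and without arrays 2, 3 and 5, 8 fell and 2 rose (−0.13). Of 61 respiratory chain subunits 2 rose and 6 fell. Their median was −0.47, and for all such genes past the background filter −0.28, −0.34 under quantile normalization, but 0.02, 0.05 and 0.31 with 75th-percentile scaling, scaling to probes above background and normexp. Of these 81 genes 2 rose and 8 fell, but 6 and 4 with 75th-percentile scaling, 2 and 13 under quantile normalization, and 6 and 2 with probes above background. None passed after normexp. Without arrays 2, 3 and 5, 8 of the 61 rose and 23 fell. Of 9 tested genes that mitochondrial DNA encodes 1 fell, ND1 (−1.14, adjusted p = 0.0149), with 2 at an unadjusted p under 0.05. The median of the 9 was −0.49, and for all 10 it was −0.44, but 0.12 after normexp. None of the 10 passed with any of the 4 other scalings. Among cell markers, 8 of 9 tested hepatocyte markers and 4 of 5 endothelial markers rose, 2 of 6 monocyte and macrophage markers fell, and no T cell, neutrophil or erythroid marker passed. After normexp no hepatocyte marker and 1 endothelial marker rose.

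**Figure D4:**
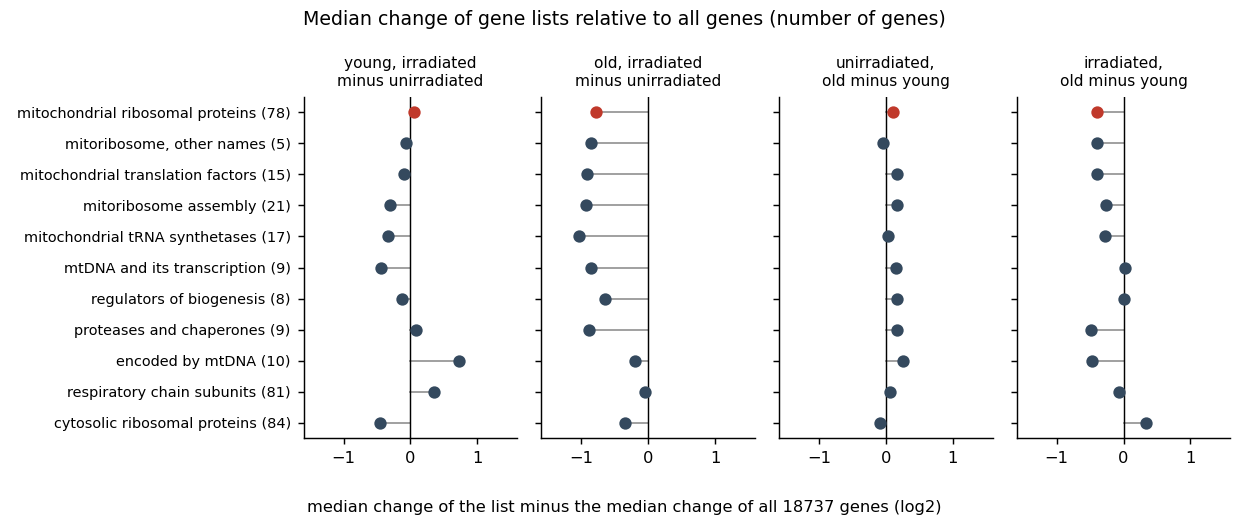
Median change of each gene list minus the median change of all 18737 genes (log2, horizontal) in 4 comparisons, with the number of genes in parentheses. In irradiated against unirradiated old mice the members lay 0.78 below all genes, and 0.27 below after normexp, the smallest gap of the scalings tried; in unirradiated old against young mice they lay 0.10 above, and 0.02 below under quantile normalization.

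The comparison of old with young unirradiated mice asked how the members stand before irradiation. It shares the old unirradiated arrays with the irradiation comparison in old mice and the young unirradiated arrays with that in young mice. With median scaling most members were higher in old mice: 61 of 65 rose and none fell, or 93.8 percent, while 48.5 percent of all tested genes rose and 15.4 percent fell. Of all 78 members 71 rose and none fell, beside 48.5 and 14.7 percent of genes. In 49 of the 61 members all 6 old mice lay above all 6 young mice, or 80.3 percent, against 76.5 percent of all tested genes that rose. Without the fold requirement this held for 56 of 71, or 78.9 against 76.9 percent. The median was 0.76 against 0.63 for all genes, and 55 of the 65 lay above the median of all genes.

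Most of this rise was shared by genes in general, and it depended on scaling. The median of all 18737 genes was 0.61 here but 0.09, 0.14, 0.05 and 0.10 with 75th-percentile scaling, quantile normalization, scaling to probes above background and normexp. Over the genes of the deposited table it was 0.02. Relative to all genes, the 78 members lay 0.10 higher here, 0.04 higher after normexp and 0.02 lower under quantile normalization. Members that rose then numbered 7, 4, 0 and 4 of 78 with 75th-percentile scaling, probes above background, normexp and quantile normalization, and 1, 1, 0 and 2 fell. For these scalings and the later fits of this paragraph the shares of all genes that passed are not given. Higher genes made up 76.8 percent of all calls over the 18737 genes, against 36.8, 47.5 and 31.3 percent with 75th-percentile scaling, quantile normalization and probes above background. In the deposited table their share was 17.2 percent. Without young unirradiated arrays 3, 4 and 5, 41 of 65 members rose, with a median of 0.75 against 0.59. With slide as a random block 62 members rose, but young and old mice were hybridized on separate slides and scanned on separate days, so age and day cannot be told apart.

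Members that led the rise kept their sign under every scaling. Mrpl33, with a bacterial relative, read 7.23, 7.48 and 7.94 in young and 8.43, 8.71 and 9.09 in old unirradiated mice. All 6 old mice lay above all young mice (1.20, standard error 0.154, adjusted p = 2.86e-05). Over the alternatives its change ran from 0.49 to 1.28. Mrpl9 read 2.41, 3.02 and 3.65 in young and 3.83, 4.07 and 4.65 in old mice, without overlap (1.13, standard error 0.214, adjusted p = 0.000394). Its change ran from 0.39 to 1.25. Mrpl28 read 2.00, 2.28 and 2.71 in young and 3.22, 3.50 and 3.56 in old mice, also without overlap (1.10, standard error 0.154, adjusted p = 4.96e-05). Its change ran from 0.33 to 1.18. Mrps15, of the small subunit, read 3.22, 3.35 and 3.82 in young and 4.22, 4.47 and 4.87 in old mice, and every old mouse lay above every young mouse (1.07, standard error 0.164, adjusted p = 8.81e-05). Its change ran from 0.38 to 1.25. Mrpl38 read 2.01, 2.25 and 2.56 in young mice and 2.94, 3.26 and 3.61 in old mice, with no overlap (1.05, standard error 0.148, adjusted p = 5.19e-05). Its change ran from 0.35 to 1.20. After normexp none of these passed. Mrpl9 also lost its call with 75th-percentile scaling, quantile normalization and scaling to probes above background (adjusted p of 0.0175, 0.0196 and 0.0275). Mrpl28 (adjusted p = 0.0202) and Mrpl38 (adjusted p = 0.0180) lost theirs with scaling to probes above background. In the deposited table Mrpl33 changed by 0.49 (adjusted p = 0.0401) without passing the threshold on p, and the others did not pass either.

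Under median scaling, members that did not rise were few. Mrpl32 changed by 0.02 (adjusted p = 0.946), with levels that overlapped widely. Mrpl35 (0.76, adjusted p = 0.0101), Mrpl42 (0.75, adjusted p = 0.0109) and Mrps22 (0.40, adjusted p = 0.0425) missed the threshold on p. Without the fold requirement Mrps10 (−0.06), Mrps27 (0.22) and Mrps33 (0.36) did not pass either. Mrpl35, Mrpl42, Mrps27 and Mrps33 were named after their values were seen. Mrpl39 had probes that disagreed, its brighter probe higher by 0.73 and its other probe, above background on 5 arrays, lower by 0.96 on the log2 scale. Both passed. For 22 of the 23 members with several probes the signs agreed.

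Genes of the partner lists also rose under median scaling, where 48.5 percent of all tested genes did: 14 of 15 translation factors (median 0.80), 14 of 17 assembly factors (0.77), 11 of 16 synthetases (0.64), 8 of 9 genes of mitochondrial DNA (0.76), 5 of 7 regulators (0.91), 8 of 8 proteases and chaperones (0.78) and 4 of 4 mitoribosome genes with other names (0.62). With 75th-percentile scaling and all genes past the background filter, the numbers that rose were 1 of 15, 1 of 21, 0 of 17, 0 of 9, 2 of 8, 0 of 9 and 0 of 5 in this order, while 1 assembly factor and 2 synthetases fell. Shares of all genes that passed under the other scalings are not given, so counts under them are not compared with other genes. Of 9 tested genes that mitochondrial DNA encodes 8 rose (median 0.95), but 1 of 10 with 75th-percentile scaling. Single genes went the other way, the assembly GTPase Gtpbp10 (−1.86, adjusted p = 5.76e-07) and the synthetase Sars2 (−1.41, adjusted p = 0.000166). Of 82 cytosolic ribosomal protein genes 39 rose (median 0.53), and for all of them past the background filter the median was 0.52, but −0.03 with scaling to probes above background. Of 61 respiratory chain subunits 46 rose and 3 fell (median 0.72). With 75th-percentile scaling 6 of all 81 rose and 3 fell, and none of 84 cytosolic ribosomal protein genes rose. The mitoribosome genes with other names had a median of −0.04 under quantile normalization. Among cell markers, 8 of 12 neutrophil, 7 of 8 platelet, 5 of 10 B cell (median 0.67) and 3 of 6 monocyte and macrophage markers rose. Of 7 natural killer cell markers 1 rose, of 10 T cell markers 1 fell, of 5 endothelial markers 1 rose and 1 fell, no erythroid marker passed, and 6 of 9 tested hepatocyte markers fell. With 75th-percentile scaling, quantile normalization, probes above background and normexp, 7, 7, 6 and 0 neutrophil, 1, 0, 0 and 0 platelet, and 1, 1, 1 and 0 monocyte and macrophage markers rose. No B cell marker did so under these 4, where the B cell median was 0.07 to 0.15. Hepatocyte markers that fell numbered 7, 6, 7 and 0. Their part in the result was not tested.

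The comparison of old with young irradiated mice asked whether the members still differ by age 24 h after irradiation. Irradiated mice of the 2 ages were also on separate slides and scan days, so age and day cannot be told apart. No member passed by limma in either direction, of the 65 or of all 78, and the trend and robust version of limma also gave 0. Of all tested genes 1.40 percent rose and 0.595 percent fell, and of the wider set 1.67 and 0.603 percent. At an unadjusted p under 0.05 stood 1 of the 65 members, against 21.4 percent of all genes. With other scalings these numbers were 20, 23, 15 and 0 of the 78 for 75th-percentile scaling, quantile normalization, probes above background and normexp, against 2 of 78 here. With the fold requirement they were 6 of 33, 8 of 40, 4 of 38 and 0 of 71, and 1 of 55 in the deposited table. What share of all genes stood at this p in those fits is not given, so these numbers are not compared with other genes. The members had a median of −0.21 against 0.20 for all genes, and −0.18 against 0.21 for the 78. Relative to all genes the 78 members lay lower by 0.39 on the log2 scale with median scaling, 0.40 under quantile normalization and 0.35 after normexp. Higher genes made up 73.4 percent of all calls over the 18737 genes, against 32.9, 47.3, 33.9 and 17.1 percent under the 4 other scalings and 15.9 percent in the deposited table.

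Mrpl48 came closest, at 5.67, 5.81 and 5.98 in young and 6.19, 6.47 and 6.76 in old irradiated mice. The groups did not overlap, yet the change of 0.67 (standard error 0.212) did not pass (adjusted p = 0.105). There were 4 members that rose without old irradiated arrays 4 and 6, with a median of 0.18 against 0.34 for all genes. Arrays 2, 3 and 5 of that group left out, 3 members fell, with a median of −0.75 against 0.19. Leaving out young irradiated arrays 2, 4 and 5 turned the median of the members to 0.12, against 0.19 for all genes, with no member passing and 1 at an unadjusted p under 0.05. Leaving out the high-hepatocyte arrays of both ages gave −0.44 against 0.10, again with none passing and 4 at an unadjusted p under 0.05. For these fits without arrays the shares of all genes are not given, so the counts are not compared with other genes. Cytosolic ribosomal proteins stood on the other side of 0, with a median of 0.55 and none of 82 passing. For all of them past the background filter it was 0.54, but −0.23 under quantile normalization. Respiratory chain subunits had a median of 0.05 and none of 61 passed. For all 81 past the background filter it was 0.14, but −0.09, −0.32, −0.13 and −0.20 with 75th-percentile scaling, quantile normalization, probes above background and normexp. The genes that mitochondrial DNA encodes had a median of −0.26, and none of 9 passed, with 1 at an unadjusted p under 0.05. Several lists of cell markers lay further from all genes than the members did. Of 10 T cell markers 2 rose (median 1.07, 8 at an unadjusted p under 0.05), and 1 with each other scaling, while 1 fell after normexp. None of 8 platelet markers (1.06, 7 at this p), 12 neutrophil (1.18, 5), 6 monocyte and macrophage (−0.71, 1), 10 B cell (−0.69, 0) or 7 natural killer cell markers (−0.59, 1) passed. Their part in the result was not tested.

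The interaction of age and radiation asked whether the response to irradiation differs between the ages. By limma no gene passed, so 0 percent of all genes and none of the 65 or 78 members did, and the trend and robust version also gave no member. The unadjusted p-values were another matter: 47 of the 65 members (72.3 percent) stood under 0.05, against 23.6 percent of all tested genes, and 57 of the 78 (73.1 percent) against 24.0 percent. This number depended on scaling. Of all 78 members it was 44, 39, 35 and 0 with 75th-percentile scaling, quantile normalization, probes above background and normexp. Of the members with the fold requirement it was 14 of 33, 19 of 40, 14 of 38 and 0 of 71, and 0 of 55 in the deposited table. The response of old mice was lower than that of young mice by a median of 0.99 on the log2 scale for the members and 0.24 for all genes. For the 78 members and 18737 genes the medians were −0.91 and −0.23. They were −0.62 and 0.06 both with 75th-percentile scaling and with probes above background. Under quantile normalization they were −0.63 and −0.09, after normexp −0.52 and −0.02, and in the deposited table −0.54 and 0.14. The lowest adjusted p of a member was 0.104 and of any gene 0.0604. A difference between the ages in single members was therefore not established at the threshold used.

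Mrps25 had the largest interaction, −1.53 (standard error 0.383, limma adjusted p = 0.104). It read 4.56, 5.05 and 5.44 in old unirradiated and 3.31, 4.26 and 5.01 in old irradiated mice (−0.90, adjusted p = 0.0429, not passing), beside the 0.63 of its brighter probe in young mice. Its other probe changed by −0.86 in young and −1.55 in old mice. Mrpl22, which lines the exit tunnel, had an interaction of −1.25 (standard error 0.366, adjusted p = 0.117). It read 4.65, 5.08 and 5.32 in young unirradiated and 4.73, 5.25 and 5.49 in young irradiated mice, then 5.33, 6.03 and 6.12 in old unirradiated and 3.77, 5.07 and 5.57 in old irradiated mice. Young groups overlapped almost fully, and in old mice 1 irradiated mouse reached into the unirradiated range. Mrpl28 had an interaction of −1.39 (standard error 0.423, adjusted p = 0.123), with 2.00, 2.28 and 2.71 against 1.65, 2.43 and 2.78 in young mice and 3.22, 3.50 and 3.56 against 0.66, 2.10 and 2.89 in old mice. Mrpl21 stood at −1.28 (standard error 0.377, adjusted p = 0.117) and Mrpl3 at −1.26 (standard error 0.395, adjusted p = 0.129). Mrpl32 was on the other side, at 0.84 (standard error 0.681, adjusted p = 0.424).

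No gene of any other list passed either. Of all genes past the background filter, those at an unadjusted p under 0.05 were 10 of 15 translation factors (median −0.91), 9 of 21 assembly factors (−0.72), 5 of 17 synthetases (−0.72), 4 of 5 mitoribosome genes with other names (−0.82), 6 of 10 genes encoded by mitochondrial DNA (−0.99) and 35 of 81 respiratory chain subunits (−0.39). Cytosolic ribosomal proteins gave 6 of 84 (0.08). Genes of mitochondrial DNA upkeep and transcription gave 1 of 9 (−0.51), regulators 2 of 8 (−0.41) and proteases and chaperones 4 of 9. The share of all genes at this p was 24.0 percent. Among cell markers, 5 of 6 monocyte and macrophage markers stood there (−2.45), 2 of 10 B cell markers (−1.25), 2 of 10 T cell markers (0.62), 1 of 9 hepatocyte markers (3.09) and no erythroid marker (0.59). With 75th-percentile scaling, quantile normalization and probes above background the share of all genes was 20.5, 21.4 and 20.2 percent. In this order genes encoded by mitochondrial DNA gave 1, 2 and 1, respiratory chain subunits 15, 22 and 10, and assembly factors 5, 6 and 4. Translation factors gave 9, 9 and 8, synthetases 2, 3 and 2, genes with other names 2, 1 and 1, and T cell markers 5, 4 and 5. After normexp the numbers of these lists were 0 but for 1 synthetase, 1 regulator and 1 T cell marker, against 2.23 percent of all genes. The part of these cells in the result was not tested.

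The number of calls in this comparison depended on the arrays that stood apart. Without old irradiated arrays 2, 3 and 5 the interaction was lower for 50 of 65 members and higher for 1 (median −1.50 against −0.36 for all genes). Without the high-hepatocyte arrays of both ages it was lower for 35 (−1.19 against −0.41). The shares of all genes that passed in the fits of this paragraph are not given, so these counts are not compared with other genes. Without old irradiated arrays 4 and 6, or without young irradiated arrays 2, 4 and 5, no member passed, and 29 and 10 stood at an unadjusted p under 0.05. Without young unirradiated arrays 3, 4 and 5 none passed and 37 did so. Leaving out old irradiated array 3 alone gave 19 lower members. With slide as a random block none passed, and 52 stood at an unadjusted p under 0.05.

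**Figure D5:**
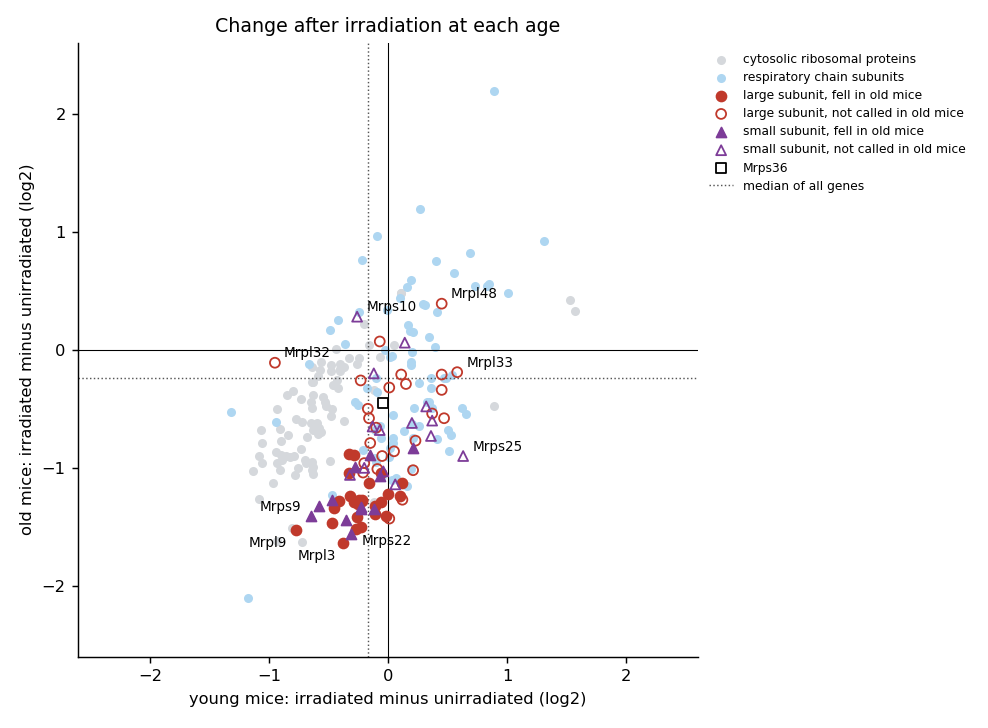
Change after irradiation in young mice (horizontal) and old mice (vertical) for each of the 78 members (log2; filled where the member fell in old mice), beside cytosolic ribosomal proteins and respiratory chain subunits, with dotted lines at the medians of all genes (−0.17 and −0.24). Members lie near the median of all genes across and well below it down the plot (medians −0.12 and −1.03; after normexp 0.29 and −0.22), while the medians of the cytosolic list were −0.63 and −0.59 (after normexp −0.03 and 0.07).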

How the data were processed

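Whole-blood RNA of 24 mice was read with 1 array per mouse. The authors extracted spot values with Agilent Feature Extraction 12.0.2, and the deposited raw files hold processed signal intensity with background treated by that software. The deposited series table holds normalized log2 values for 17166 probes and 55 member genes. The authors put its values on the log2 scale and normalized them to medians. Its column medians ran from 5.77 to 6.73, and which probes set the medians is not stated, so it served only as an alternative, for differences between groups and their tests and not for levels. Control spots were dropped, leaving 43020 spots. Signal was taken to log2 and the median of each array subtracted. Probes not significantly above background (by the software) or not uniform on 25 percent or more of the arrays were dropped, and 24130 probes of 18737 genes remained. Probes without a 1.5-fold difference from their median on 20 percent of the arrays were dropped next, and the remaining probe with the highest mean represented its gene. For 4 members this was not the brightest probe past the background filter: mean levels were 4.01 against 6.82 for Mrpl4, −0.39 against 4.24 for Mrps14, 2.24 against 6.55 for Mrps23 and 2.84 against 4.10 for Mrpl10. Without the fold requirement the brighter probes were used. With array medians of 8.66 to 44.8, low signals may carry larger errors on the log2 scale, which was not tested.

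Groups of 6 mice were compared with limma 3.58.1 in R 4.3.3 with the package data.table, version 1.17.8 (moderated test, 2-sided), and figures were drawn with Python 3.11.15, NumPy 2.4.6 and Matplotlib 3.10.9. A gene passed at p below 0.005 and Benjamini-Hochberg adjusted p below 0.05 over all tested genes. The fits were tested on simulated data, but no outcome is given and no result here rests on it. Members and gene lists were chosen with earlier results of these data known. Named members were, in each comparison, the 5 largest rises and the 5 largest falls among members that passed, did not overlap between groups and were above background in all 6 mice of a group. To these came the 5 members with the largest interaction relative to its error, members not tested, members whose probes disagreed, the relatives of S18 with Mrps30 and Mrps36, and up to 5 genes with the highest mean signal of each other list. From the alternatives, 16 were listed with the design and 10 were added after seeing the data, among them those that leave out arrays standing apart. Normexp used an offset of 50. The slides were 6, with 4 arrays each.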

Additional observations from a re-analysis of the deposited data

Results flagged for a closer look

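The 6 mice of each group were searched for a mouse far from the other 5. The search covered the lists and part of the named members, not all 78 members. Of 160 groups checked 4 held such a mouse, and chance gives about 1 in 20. In old unirradiated mouse 4 the median of the genes of mitochondrial DNA upkeep and transcription was 3.13, against 3.59 to 3.71 in the others. In the same mouse Mrpl11 stood at 5.75, against 6.13 to 6.34, and Mrpl22 at 5.33, against 5.86 to 6.12. In young unirradiated mouse 3 the median of endothelial markers was 3.73, against at most 3.25 in the others. Of 78 members 1, Mrps25, took opposite sides at the 2 ages: every young irradiated mouse lay above the median of its unirradiated group and every old irradiated mouse below it. The difference of medians in old mice minus that in young mice was −1.50. The interaction test of Mrps25 gave −1.53 with an adjusted p of 0.104 and did not pass. This rests on 1 probe, as the other probe of Mrps25 changed by −0.86 in young and −1.55 in old mice. The causes of these values were not tested.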

How the results depend on the processing

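Values are given in the order of the report, as members called higher, members called lower and the members' median minus that of all genes, counts where they differed more than 1.5-fold and medians where they moved by more than the standard deviation between mice. Values not given lay within these limits. With median scaling they were 1, 3 and 0.03 in irradiated young mice, 0, 38 and −0.88 in irradiated old mice, 61, 0 and 0.13 for age in unirradiated mice, 0, 0 and −0.41 for age in irradiated mice, and 0, 0 and −0.74 for the interaction. Where a cause is not stated, it was not tested. Counts under the alternatives here stand without the share of all genes called in the same fit, so they are not compared with other genes.

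Scalings that shift arrays against each other also changed which members met the fold requirement, so fewer were tested. For fixed genes 75th-percentile scaling and scaling to probes above background cannot change the median relative to all genes, so it differs there only through the genes tested. With 75th-percentile scaling (33 members) young mice gave 0 higher and 6 lower, old mice 17 lower with a median of −1.18, and unirradiated mice by age 2 higher, 1 lower and 0.25. With quantile normalization (40 members) young mice gave 0 higher and 7 lower, old mice 21 lower, and unirradiated mice by age 6 higher and 2 lower. With scaling to probes well above background (38 members) young mice gave 0 higher, old mice 13 lower and −1.18, and unirradiated mice by age 1 higher and 1 lower. Normexp adds 50, while the median signal of an array ran from 8.66 to 44.8. After it (71 members) young mice gave 0 higher and 0 lower, and old mice 0 lower and −0.48. Unirradiated mice by age gave 0 higher and 0.01, and the interaction −0.45. Without the fold requirement, member medians after normexp spread from 0.27 to 3.21 in young and 0.94 to 3.60 in old unirradiated mice. With median scaling they spread from 4.30 to 4.63 and 4.83 to 5.42. In young and old irradiated mice they spread from 2.00 to 3.23 and 0.97 to 3.30, against 4.05 to 4.89 and 3.41 to 4.77. The part of this spread in the counts after normexp was not tested. The deposited table (55 members) gave 0 higher in young mice, 7 lower in old mice and 0 higher by age in unirradiated mice, where Mrpl11 (−0.07), Mrpl21 (−0.0018) and Mrps18a (−0.01) took the other sign.

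Without the fold requirement, added after seeing the data, 75th-percentile scaling gave 2 higher and 6 lower in young mice, 1 higher in old mice, and 7 higher and 1 lower by age in unirradiated mice. Quantile normalization gave 0 higher and 11 lower in young mice, and 4 higher, 2 lower and −0.02 by age in unirradiated mice. Scaling to probes well above background gave 2 higher in young mice, 1 higher and 21 lower in old mice, and 4 higher and 1 lower by age in unirradiated mice. Normexp gave 0 higher and 0 lower in young mice, 0 lower and −0.27 in old mice, and 0 higher by age in unirradiated mice.

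Without the background filter young mice gave 0 higher, and age in unirradiated mice 0.46. The mean of probes gave 5 lower in young mice, and limma with trend and robust 2 higher. A single fit of all arrays, which shares 1 variance among groups of unequal spread, gave 0 higher and 0 lower in young mice, 28 higher by age in unirradiated mice and 1 higher by age in irradiated mice. Slide as a random block gave 3 higher and 7 lower in young mice. Within slides that held both treatments, with fewer mice, young mice gave 0 higher and 0 lower and old mice 7 lower.

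With the replicate number as a block, young mice gave 0 higher and 1 lower and old mice 24 lower, while age in unirradiated mice gave 52 higher. The numbers do not pair the mice: correlations of mice with the same number ran from −0.29 to 0.29 in young, −0.20 to 0.33 in old, −0.08 to 0.15 in unirradiated and −0.60 to 0.58 in irradiated mice, and 1, 3, 0 and 1 of 6 mice matched best with their own number.

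Arrays were also left out after seeing the data. Without old irradiated arrays 4 and 6 the median was −0.49 in old mice and −0.45 for the interaction, and 4 members were higher by age in irradiated mice. Without old irradiated arrays 2, 3 and 5 it was −1.52 in old mice, with 3 lower and −0.95 by age in irradiated mice, and 1 higher, 50 lower and −1.14 for the interaction. Without young irradiated arrays 2, 4 and 5 young mice gave 0 higher, 21 lower and −0.40, and the interaction −0.31. Without young unirradiated arrays 3, 4 and 5 young mice gave 0 higher and 1 lower. Without the high-hepatocyte arrays of both ages young mice gave 0 higher, 21 lower and −0.40, old mice −1.52 and the interaction 35 lower. Counting similar arrays as 1 sample gave 22 lower in old mice.

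Leaving out 1 array at a time, members in young mice called higher ranged from 0 to 3, called lower from 2 to 7, and their relative median from −0.09 to 0.13. In old mice these were 0 to 0, 19 to 45 and −1.07 to −0.69. For age in unirradiated mice they were 56 to 62, 0 to 0 and 0.11 to 0.16, and in irradiated mice 0 to 0, 0 to 0 and −0.56 to −0.28. For the interaction they were 0 to 0, 0 to 19 and −0.86 to −0.60.

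Over all alternatives, the called changes of single named members kept direction and side of the threshold in 775 cases, kept direction alone in 221 and took the other sign in 3. In old mice Mrpl3 ran from −2.31 to −0.76 and Mrps9 from −1.88 to −0.45, and in young mice Mrpl32 ran from −1.17 to −0.43 and Mrpl48 from 0.25 to 0.90. Signal over background limits the dimmest members most, as the tested probes of Mrpl35 and Mrps14 were above background in only some mice of 3 groups.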

Other observations

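The 78 members lie on 17 chromosomes, 11 of them on chromosome 11. Old unirradiated arrays 1 and 6 were very similar, with a standard deviation of 0.352 between them over all genes, as were young irradiated arrays 2 and 5 with 0.396, and each was counted as its own mouse.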
